A study of Mus musculus with 12 samples.

Results

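The 42 genes described here encode the kinases, cyclins, kinetochore, spindle and cytokinesis proteins with which a cell divides, and they are called the mitosis genes below. They were taken by symbol from a list of mitotic kinase, spindle, kinetochore and cytokinesis genes. All 42 were found among the 47643 genes counted, 1 of them (Sgol1) under its current symbol Sgo1, and all 42 had enough counts to be tested among 13229 genes. The cells were C3H/10T1/2, a mouse line of embryonic origin with fibroblast shape that can be driven towards cartilage, bone or fat, and which the labels also class as sarcoma. Every group was transfected transiently, without a virus, with 0.5 µg of plasmid per square centimetre, given new medium after 4 h and harvested on day 3. BMP2ADV carried the plasmid for bone morphogenetic protein 2 (BMP2) and served as the reference. BMP2ADV20a, BMP2ADV148b and BMP2ADV590 carried hybrid plasmids named for BMP2 together with miR-20a, miR-148b or miR-590. Each group had 3 libraries, numbered as replicates, with no statement in the labels that they came from separate cultures, so p-values measure the spread between these libraries, which may be technical. All 4 groups were transfected in the same way with a plasmid named for BMP2, an untransfected group was not analysed here, and no transfection rate is given in the labels. RNA from all cells of a culture was sequenced together, so fewer dividing cells and less RNA per dividing cell cannot be told apart.

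Mitosis is driven by the kinase CDK1 bound to cyclin B, helped by Polo-like and Aurora kinases, and it ends when the anaphase-promoting complex (APC/C) with its activator CDC20 has cyclin B destroyed. Before that, kinases of the BUB and TTK type hold the cell at the spindle checkpoint until every kinetochore is attached to microtubules, the passenger complex corrects wrong attachments, and kinesins build and then split the spindle. Most of these genes are silent in resting cells and are switched on together late in the cell cycle, and many of their promoters are known to hold a cell cycle homology region (CHR) downstream of CCAAT boxes, read by the DREAM complex in resting cells and by B-MYB and FOXM1 in dividing ones.

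Promoters of 6 mitosis genes are printed to show their start sites and any CHR or CCAAT matches there. Cenpa, Aurka and Top2a fell in BMP2ADV590, Cdk1 is the central kinase, Bub3 was the member with the highest fold change in that comparison, and Nuf2 holds neither motif. The stretches run 5′ to 3′ along the gene's strand, from 120 bases before to 50 after a RefSeq start site on GRCm38.p6, with matches to TTTGAA or TTCGAA (CHR type) and to CCAAT on either strand in capitals. On the other strand TTTGAA reads TTCAAA and CCAAT reads ATTGG.
Cenpa, chr5:30666766-30666935, plus strand: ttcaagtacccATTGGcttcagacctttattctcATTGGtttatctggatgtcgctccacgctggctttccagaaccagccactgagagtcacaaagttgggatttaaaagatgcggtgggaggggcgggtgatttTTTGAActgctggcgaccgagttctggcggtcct
Aurka, chr2:172370521-172370690, minus strand: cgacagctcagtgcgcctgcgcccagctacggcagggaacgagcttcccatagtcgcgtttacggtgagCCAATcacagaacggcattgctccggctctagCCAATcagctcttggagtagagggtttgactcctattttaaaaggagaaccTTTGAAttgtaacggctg
Top2a, chr11:99024140-99024309, minus strand: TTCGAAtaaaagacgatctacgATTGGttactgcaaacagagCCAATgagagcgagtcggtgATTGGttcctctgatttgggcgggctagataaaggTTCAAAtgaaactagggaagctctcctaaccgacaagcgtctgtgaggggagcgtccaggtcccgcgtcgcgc
Cdk1, chr10:69352863-69353032, minus strand: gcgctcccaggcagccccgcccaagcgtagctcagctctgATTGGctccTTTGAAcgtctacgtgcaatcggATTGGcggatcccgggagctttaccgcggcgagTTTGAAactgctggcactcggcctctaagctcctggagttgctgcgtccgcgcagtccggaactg
Bub3, chr7:131560250-131560419, plus strand: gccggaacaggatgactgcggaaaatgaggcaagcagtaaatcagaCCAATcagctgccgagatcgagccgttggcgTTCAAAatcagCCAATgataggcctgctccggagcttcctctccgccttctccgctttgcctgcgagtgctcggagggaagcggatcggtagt
Nuf2, chr1:169531415-169531584, minus strand: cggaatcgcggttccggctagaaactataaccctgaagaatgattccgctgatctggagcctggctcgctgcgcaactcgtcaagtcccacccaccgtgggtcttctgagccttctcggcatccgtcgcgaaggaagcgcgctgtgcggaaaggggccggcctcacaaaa

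RefSeq promoter windows of 300 bases (250 before and 50 after the start) were at hand for 35 of the 42 genes, in 38 windows; Aurkb, Ccna2, Cdc25c, Dlgap5, Incenp, Kif20a and Tpx2 had no entry. A CHR-type match was present in 84.2% of the mitosis windows and in 19.2% of all 32851 windows. For CCAAT the shares were 86.8% and 37.4%, for 2 or more CCAAT matches 57.9% and 11.7%, and for both motifs together 78.9% and 7.52%. The matches also lay at a shared place: 73.7% of mitosis windows had a CHR-type match within 50 bases of the start, against 5.31% of all windows. With the start base counted as 1, the match began at base 17 in Cenpa, at base 33 in Aurka and at base 3 in Cenpf, while in Prc1 it began 5 bases before the start. Cdk1 had CHR-type matches that began 71 and 15 bases before it. These are matches of letters and not measured binding sites.

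**Figure D1:**
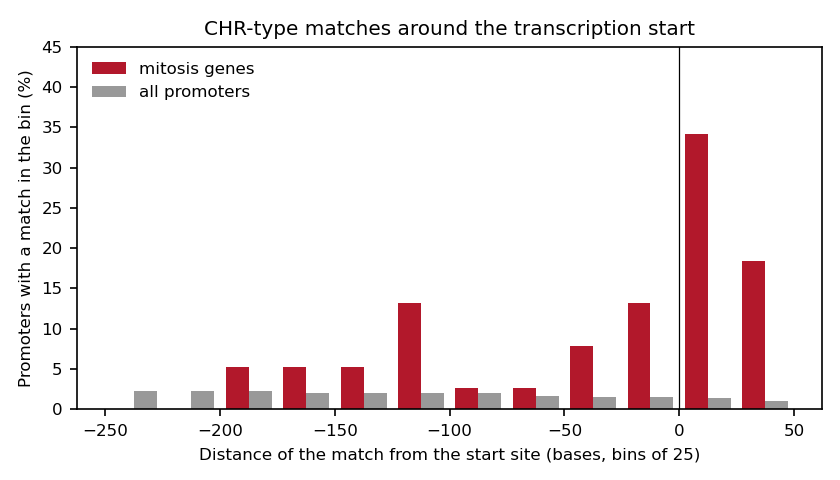
Share of RefSeq promoter windows with a CHR-type match (vertical axis, percent of windows) in each bin of 25 bases by distance from the start site (horizontal axis, negative before the start), for the 38 windows of mitosis genes and all 32851 windows. The highest bar of the mitosis genes, 34.2%, is the bin just after the start, where all windows reach 1.43%.

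The 12 libraries held 9236431 to 14727288 gene counts with 17086 to 18055 genes above 0. Mitosis genes took 33789 to 54807 counts of a library, and 39 of the 42 had at least 100 counts in every library; the lowest single count was 62, for Nek2. Levels are given as CPM, counts scaled to a common library size, fold changes are log2 ratios fitted by edgeR, negative where the group named first is lower, and a gene is called where its Benjamini-Hochberg adjusted p is under 0.05. Fibroblast markers summed to 20268 to 23752 CPM over the 12 libraries, while macrophage markers summed to 5.10 to 9.23, endothelial markers to 5.51 to 12.6 and epithelial markers to 1.16 to 3.18, with Adgre1, Cdh5, Krt8, Myod1 and Sox10 at 0 counts throughout. Mir148b, a check of 1 plasmid, was counted 211, 215 and 204 times with BMP2ADV148b and 0 times in each of the 9 remaining libraries. Counts of the mouse Bmp2 gene were few (1.30 ± 0.527 CPM in BMP2ADV, SD, n = 3). Because every plasmid is named for BMP2, such counts could not tell the groups apart. The miR-20a and miR-590 plasmids were not checked.

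Together the mitosis genes were lowest in BMP2ADV590. Their summed level was 3798, 3982 and 4122 CPM in the BMP2ADV libraries, 3833, 3688 and 3716 in BMP2ADV20a, 3788, 3679 and 3701 in BMP2ADV148b and 3302, 3381 and 3383 in BMP2ADV590. Every BMP2ADV590 library lay below the 9 others, the BMP2ADV20a and BMP2ADV148b libraries overlapped each other, 1 BMP2ADV20a library lay within the BMP2ADV range, and those of BMP2ADV148b lay just under it. As a share of the BMP2ADV mean, the summed level was 94.4% in BMP2ADV20a, 93.8% in BMP2ADV148b and 84.6% in BMP2ADV590. Before any normalisation beyond the total, mitosis genes made up 0.391%, 0.406% and 0.403% of gene counts in the BMP2ADV libraries and 0.334%, 0.328% and 0.336% in those of BMP2ADV590.

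**Figure D2:**
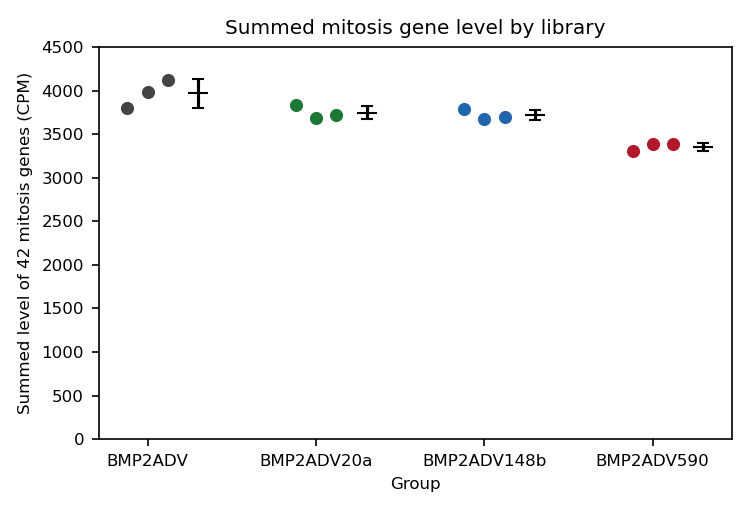
Summed level of the 42 mitosis genes in each library (vertical axis, normalised CPM), by group (horizontal axis), with points for libraries and bars for the mean ± SD of 3 libraries. The BMP2ADV590 points sit between 3302 and 3383 CPM, below the points of the other 3 groups.

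Across genes the order of the groups was uneven. BMP2ADV had the highest of the 4 group means in 34 of the 42 mitosis genes, against 26.1% of all tested genes, and the lowest in 0. BMP2ADV590 had the lowest mean in 29 of the 42, against 29.4% of all tested genes. Within a library, the median mitosis gene differed from the BMP2ADV mean by -0.06, 0.00 and 0.07 on the log2 scale in the BMP2ADV libraries, by -0.07, -0.13 and -0.12 in BMP2ADV20a, by -0.08, -0.18 and -0.15 in BMP2ADV148b and by -0.26, -0.25 and -0.22 in BMP2ADV590. The BMP2ADV libraries also differed among themselves: 31 of the 42 genes were under the group mean in BMP2ADV replicate 1 and 11 in replicate 3.

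**Figure D3:**
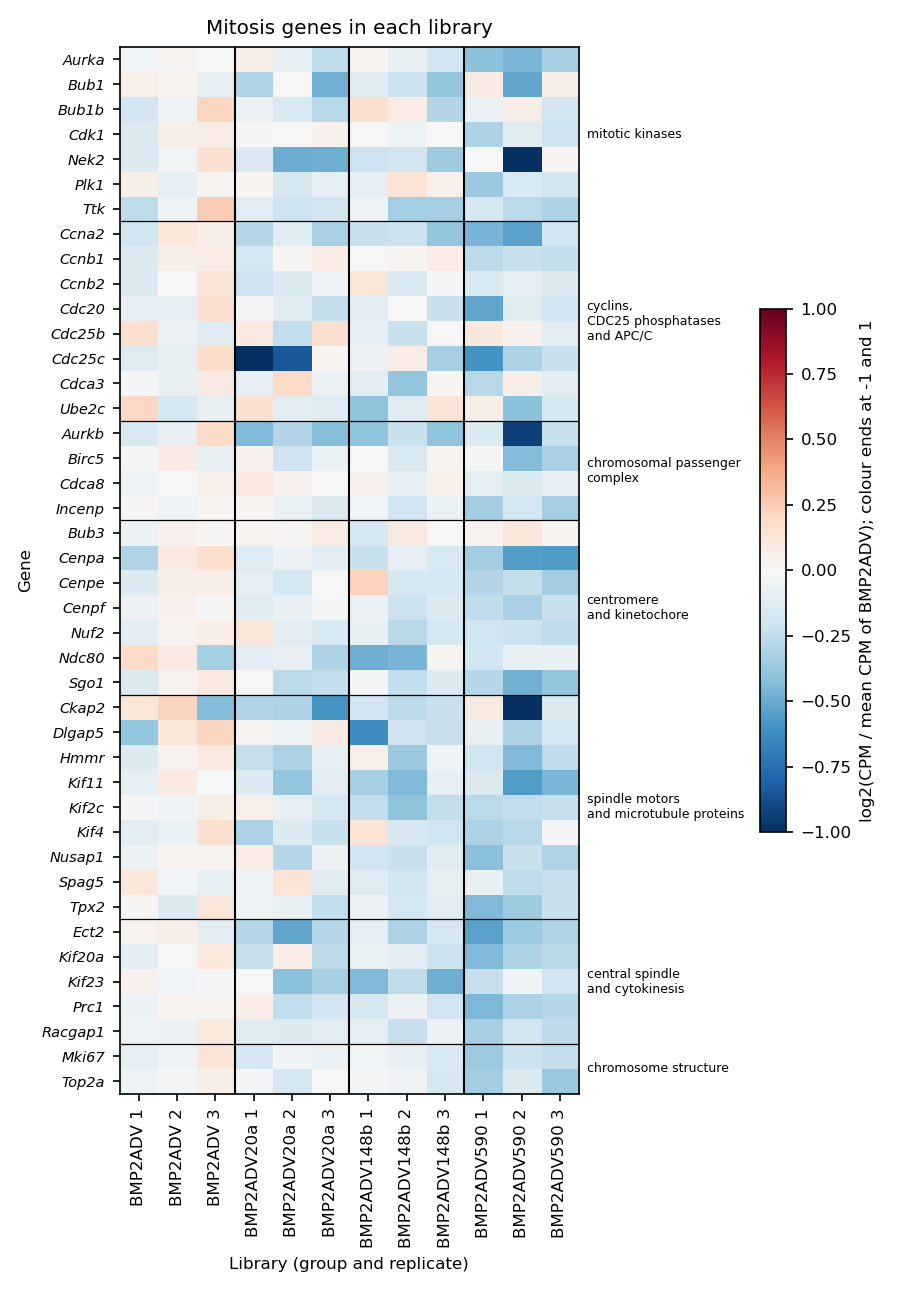
Level of each mitosis gene (rows, grouped by role) in each library (columns) as log2 of its CPM over the mean CPM of the BMP2ADV libraries, with blue below and red above that mean and colours ending at -1 and 1. Blue fills most of the BMP2ADV590 columns, Bub3 and Cdc25b stay near 0 there, and Nek2, Ckap2 and Aurkb are darkest in BMP2ADV590 replicate 2.

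In BMP2ADV590 against BMP2ADV, 10 of the 42 mitosis genes fell and 0 rose by edgeR's quasi-likelihood test, where 3.89% of all tested genes were called lower. These were Cenpa, Aurka, Prc1, Ccna2, Tpx2, Kif20a, Top2a, Cenpf, Incenp and Sgo1. The median fold change of the 42 was -0.26, against 0.00 over all tested genes, and 40 of the 42 had a value below 0. Groups did not overlap, with BMP2ADV590 lower, in 25 of the 42, against 12.5% of all tested genes. Changes were small: the lowest fold change was -0.48 and the highest 0.06. The 95% intervals of 24 genes lay wholly below 0 and none wholly above. Over all tested genes 21.2% had an unadjusted p under 0.05 by edgeR, in either direction. The count of 10 became 3 without BMP2ADV replicate 2, 2 without BMP2ADV replicate 3, 5 without BMP2ADV590 replicate 1, 6 without BMP2ADV590 replicate 3, 6 with the 2 groups fitted alone and up to 15 without TMM scaling. Cenpa and Aurka were called in each of the 12 fits that left out 1 library, with adjusted p up to 0.0453 and 0.0375, and in each of the 8 other settings.

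**Figure D4:**
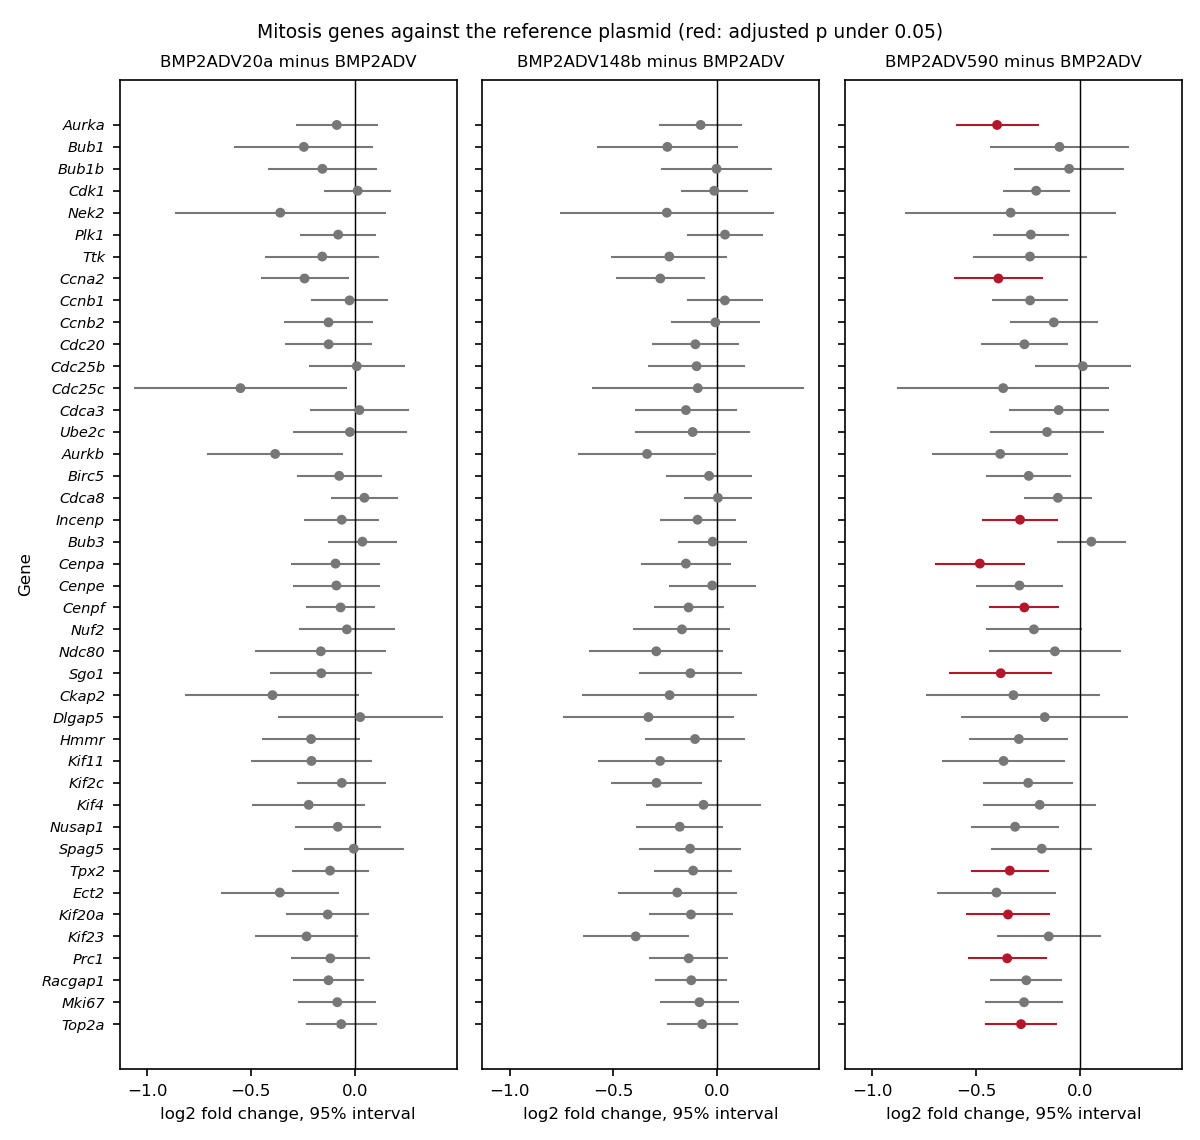
Log2 fold change (horizontal axis) of each mitosis gene (vertical axis, by role) with its 95% interval in each hybrid group against BMP2ADV, red where the adjusted p is under 0.05. Red points occur only in the BMP2ADV590 panel, for 10 genes from Cenpa at -0.48 to Cenpf at -0.27.

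Markers of cartilage cells moved in the same comparison. All 7 tested genes of a list of 10 chondrocyte markers were called higher in BMP2ADV590, where 578 of all 13229 tested genes were called higher. The summed level of the list was 3578 to 4361 CPM in BMP2ADV, 4420 to 4896 in BMP2ADV20a, 3633 to 4800 in BMP2ADV148b and 6013 to 6938 in BMP2ADV590. Of the 10, 0 were at 0 in all libraries. Neural markers, in a list of 5 with Sox10 at 0, summed to 256 to 328 CPM in BMP2ADV and 441 to 495 in BMP2ADV590, with S100b called higher and Map2 lower. Skeletal muscle markers summed to 9.25 to 16.9 CPM over the 12 libraries, with Acta1 called lower. Among fibroblast markers 2 of 11 were called higher and 0 lower, and BMP2ADV590 lay apart from the other groups on the first principal component, at 21.8 to 30.2 against -25.3 to 6.42. Whether these have a part in the lower mitosis values was not tested.

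Among the 7 mitotic kinases 1 fell in BMP2ADV590. Aurka, the Aurora kinase that matures centrosomes and spindle poles, measured 81.4, 84.6 and 82.8 CPM in BMP2ADV, 87.0, 77.6 and 69.5 in BMP2ADV20a, 83.9, 78.8 and 72.8 in BMP2ADV148b and 62.5, 60.5 and 65.9 in BMP2ADV590. The BMP2ADV590 libraries were below the 9 others. The fold change against BMP2ADV was -0.40 (95% interval -0.59 to -0.20, adjusted p = 0.00902 by edgeR). Cdk1, the kinase that starts mitosis, measured 413, 477 and 480.3 CPM in BMP2ADV, 453, 459 and 471 in BMP2ADV20a, 458, 441 and 457 in BMP2ADV148b and 369, 419 and 396 in BMP2ADV590. BMP2ADV replicate 1 lay within the BMP2ADV590 range, and the fold change of -0.21 (-0.37 to -0.05) did not pass the test (adjusted p = 0.0924). Without BMP2ADV replicate 1 Cdk1 was called, at -0.28 (adjusted p = 0.0288), and it was called by DESeq2 (0.0371) and without TMM scaling (0.0467). In the other hybrid groups the Cdk1 value was 0.01 (-0.14 to 0.17) in BMP2ADV20a and -0.01 (-0.17 to 0.14) in BMP2ADV148b. Plk1, the Polo-like kinase of mitotic entry and cytokinesis, measured 167, 150.2 and 163 CPM in BMP2ADV, 162, 142 and 150.1 in BMP2ADV20a, 151, 176 and 166 in BMP2ADV148b and 124, 144 and 141 in BMP2ADV590. Its BMP2ADV590 libraries did not overlap those of BMP2ADV, at -0.24 (-0.41 to -0.06, adjusted p = 0.0977).

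The other 4 kinases were not called in BMP2ADV590. Bub1, which recruits checkpoint proteins to kinetochores, measured 24.8, 24.6 and 22.4 CPM in BMP2ADV, 19.4, 23.9 and 17.1 in BMP2ADV20a, 22.0, 20.6 and 18.2 in BMP2ADV148b and 25.3, 16.7 and 25 in BMP2ADV590. Only replicate 2 of BMP2ADV590 was under the BMP2ADV libraries, and the value of -0.10 (-0.43 to 0.23, adjusted p = 0.799) became 0.07 without it. Bub1b, which encodes the APC/C inhibitor BUBR1, measured 39.7, 43.7 and 52.7 CPM in BMP2ADV, 43.6, 40.8 and 37.4 in BMP2ADV20a, 50.6, 47.7 and 37.1 in BMP2ADV148b and 43.3, 47.6 and 40.0 in BMP2ADV590, with groups that overlap. Its fold change in BMP2ADV590 was -0.05 (-0.31 to 0.21, adjusted p = 0.882), and it turned to 0.07 without BMP2ADV replicate 3. Ttk, the kinase at the top of the checkpoint, had -0.24 (-0.51 to 0.03, adjusted p = 0.308), and Nek2, a kinase that splits centrosomes, -0.33 (-0.84 to 0.17, adjusted p = 0.483).

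Of the 8 cyclin, phosphatase and APC/C-linked genes, 1 fell. Ccna2 encodes cyclin A, which carries cells through S phase into mitosis, and measured 108, 134 and 129 CPM in BMP2ADV, 102, 114 and 98.8 in BMP2ADV20a, 106, 107 and 94.2 in BMP2ADV148b and 90, 85.4 and 108 in BMP2ADV590. Libraries of BMP2ADV148b and BMP2ADV590 did not overlap those of BMP2ADV, and BMP2ADV20a overlapped. The fold change was -0.39 (-0.60 to -0.18, adjusted p = 0.0159) in BMP2ADV590, with uncalled values of -0.24 (adjusted p = 0.425) in BMP2ADV20a and -0.27 (adjusted p = 0.409) in BMP2ADV148b. The call was lost without BMP2ADV replicate 2 or 3 or BMP2ADV590 replicate 1 or 2 (adjusted p up to 0.0967). Ccnb1, the main cyclin B, measured 96.7, 111 and 112 CPM in BMP2ADV, 94.4, 107 and 112 in BMP2ADV20a, 107, 108 and 112 in BMP2ADV148b and 88.7, 91.5 and 90.4 in BMP2ADV590. Its BMP2ADV590 libraries were below all 9 others but the value of -0.24 (-0.42 to -0.06) missed the threshold (adjusted p = 0.0964); without BMP2ADV replicate 1 it was called (0.0471). Cdc20, the APC/C activator that sets off anaphase, measured 225, 222 and 266 CPM in BMP2ADV, 234, 217 and 202 in BMP2ADV20a, 220.4, 239 and 203 in BMP2ADV148b and 166, 219 and 208 in BMP2ADV590. Here the BMP2ADV590 libraries were below those of BMP2ADV without overlap, at -0.27 (-0.47 to -0.06, adjusted p = 0.107), and it was called without BMP2ADV590 replicate 2 (0.0373) and without the filter on low counts (0.0458).

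The other 5 genes of that role were not called in BMP2ADV590. Ccnb2, another cyclin B, was at -0.12, Cdca3, a trigger of mitotic entry, at -0.10 and Ube2c, the ubiquitin-conjugating enzyme of the APC/C, at -0.16. Cdc25b, a phosphatase that activates CDK1, was at 0.01 (-0.21 to 0.24). Cdc25c, the phosphatase of the same family with the lowest level among the members, measured 8.13, 8.43 and 10.1 CPM in BMP2ADV, 4.41, 4.94 and 8.99 in BMP2ADV20a, 8.5, 9.33 and 7.05 in BMP2ADV148b and 5.86, 7.17 and 7.61 in BMP2ADV590. Replicates 1 and 2 of BMP2ADV20a were the lowest of the 12 libraries, and the BMP2ADV20a value of -0.55 (-1.06 to -0.04) was the lowest of any mitosis gene against the reference but not called (adjusted p = 0.465). In BMP2ADV590 all 3 Cdc25c libraries were below those of BMP2ADV, at -0.37 (-0.87 to 0.14, adjusted p = 0.422).

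In the chromosomal passenger complex, which corrects kinetochore attachment and later marks the cleavage plane, 1 of 4 genes fell. Incenp, its scaffold, measured 95.4, 92.1 and 96.4 CPM in BMP2ADV, 96.0, 90.3 and 85.5 in BMP2ADV20a, 92.7, 83.0 and 90.2 in BMP2ADV148b and 74.4, 83.6 and 74.7 in BMP2ADV590. All BMP2ADV590 libraries were below those of BMP2ADV, at -0.29 (-0.47 to -0.11, adjusted p = 0.0388); the call did not hold on leaving out a single BMP2ADV library, whichever it was, or BMP2ADV590 replicate 1 or 3 (adjusted p up to 0.135), and it held in 5 of the 8 other settings (up to 0.0761). Aurkb, the kinase of the complex, measured 31.1, 32.7 and 39.6 CPM in BMP2ADV, 25.3, 28.1 and 25.6 in BMP2ADV20a, 26.0, 29.5 and 26.1 in BMP2ADV148b and 31.3, 18.0 and 29.5 in BMP2ADV590. The BMP2ADV20a and BMP2ADV148b libraries lay wholly below BMP2ADV, whereas BMP2ADV590 replicate 1 overlapped it and replicate 2 was the lowest of the 12. Its uncalled values were -0.38 in BMP2ADV20a, -0.34 in BMP2ADV148b and -0.38 (adjusted p = 0.146) in BMP2ADV590, the last being -0.17 without BMP2ADV590 replicate 2. Birc5 (survivin), another subunit, was at -0.25 (adjusted p = 0.131), which became -0.38 and called without BMP2ADV590 replicate 1 (adjusted p = 0.0135), and Cdca8 (borealin) was at -0.11 (adjusted p = 0.481).

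The centromere and kinetochore genes held 3 of the 10 that fell. Cenpa encodes the histone H3 variant that marks the centromere, and measured 87.8, 114 and 121 CPM in BMP2ADV, 98.8, 104 and 100.3 in BMP2ADV20a, 92.3, 102 and 96.8 in BMP2ADV148b and 84.8, 73.2 and 72.9 in BMP2ADV590. Its BMP2ADV590 libraries were below the 9 others, with the closest pair being BMP2ADV590 replicate 1 and BMP2ADV replicate 1. The fold change of -0.48 (-0.69 to -0.27, adjusted p = 0.00399) was the lowest among the mitosis genes in BMP2ADV590. Cenpf, a large protein of the outer kinetochore, measured 123, 132 and 129 CPM in BMP2ADV, 118, 122 and 127 in BMP2ADV20a, 123, 111 and 116 in BMP2ADV148b and 107, 102 and 109.9 in BMP2ADV590. Here too the BMP2ADV590 libraries were the lowest 3 of 12, at -0.27 (-0.43 to -0.10, adjusted p = 0.0367). Sgo1, the shugoshin that guards cohesin at centromeres, measured 33.9, 38.6 and 40.3 CPM in BMP2ADV, 37.6, 31.3 and 31.8 in BMP2ADV20a, 37.1, 31.7 and 34.2 in BMP2ADV148b and 30.8, 27.0 and 28.6 in BMP2ADV590. Again the BMP2ADV590 libraries were below the rest, at -0.38 (-0.62 to -0.14, adjusted p = 0.0465). The Cenpf call was lost without BMP2ADV replicate 2 or 3 or any 1 BMP2ADV590 library (adjusted p up to 0.126) and held in 5 of the 8 other settings (up to 0.0836). That of Sgo1 was lost without 7 of the libraries, namely BMP2ADV replicate 2 or 3, BMP2ADV20a replicate 2 or 3, BMP2ADV148b replicate 3 and BMP2ADV590 replicate 2 or 3 (up to 0.193), and it held in 4 of the 8 other settings (up to 0.0723).

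The other 4 kinetochore genes were not called in BMP2ADV590. Cenpe, the kinesin that moves chromosomes to the spindle equator, was at -0.29 (adjusted p = 0.0725) and Nuf2, a subunit of the microtubule-binding NDC80 complex, at -0.22 (adjusted p = 0.254), both without overlap between BMP2ADV590 and BMP2ADV. Cenpe was called without BMP2ADV replicate 1 or BMP2ADV148b replicate 1 (adjusted p = 0.0467 and 0.0287), without TMM scaling (0.0433) and without the filter on low counts (0.0419). Ndc80, the namesake of that complex, was at -0.12 (adjusted p = 0.723) with overlap. Bub3, a checkpoint adaptor, measured 170.1, 182 and 179 CPM in BMP2ADV, 180.2, 179 and 186 in BMP2ADV20a, 158, 188 and 176 in BMP2ADV148b and 181, 192 and 179 in BMP2ADV590. Its groups overlapped throughout and the 95% interval in BMP2ADV590 ran from -0.11 to 0.22.

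Among the 9 spindle motor and microtubule genes 1 fell. Tpx2, the Aurora A activator that nucleates spindle microtubules, measured 147, 132 and 159 CPM in BMP2ADV, 142, 139 and 123 in BMP2ADV20a, 140.4, 129 and 135 in BMP2ADV148b and 108, 115 and 125 in BMP2ADV590. BMP2ADV590 lay below BMP2ADV without overlap, at -0.34 (-0.52 to -0.16, adjusted p = 0.0172), a call lost without BMP2ADV replicate 3 or BMP2ADV590 replicate 1 (adjusted p up to 0.117). Kif11 encodes the kinesin that pushes spindle poles apart, and measured 26.3, 29.9 and 28.1 CPM in BMP2ADV, 25.5, 21.3 and 26.1 in BMP2ADV20a, 22.3, 20.7 and 26.6 in BMP2ADV148b and 25.5, 19.1 and 20.5 in BMP2ADV590. All BMP2ADV20a and BMP2ADV590 libraries were below those of BMP2ADV, and the BMP2ADV590 value of -0.37 (-0.66 to -0.08) was not called (adjusted p = 0.118); without BMP2ADV590 replicate 1 it was -0.51 and called (adjusted p = 0.0443). Nusap1, a spindle-bundling protein, came closest of the rest at -0.31 (adjusted p = 0.0532), and was called without BMP2ADV20a replicate 2 or BMP2ADV590 replicate 2 (0.0422 and 0.0447), by DESeq2 (0.0396) and without TMM scaling (0.033). Hmmr, which anchors spindle poles, and Kif2c, a microtubule-shortening kinesin, were at -0.29 and -0.25 without overlap of BMP2ADV590 and BMP2ADV, and Kif4, a chromosome-bound kinesin, and Spag5 (astrin), a spindle protein, at -0.19 and -0.18 with overlap. Dlgap5 (HURP) and Ckap2, both microtubule stabilisers, were at -0.17 and -0.32, with intervals of -0.57 to 0.23 and -0.73 to 0.10.

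In the central spindle and cytokinesis group BMP2ADV590 did not overlap BMP2ADV in any of the 5 genes, and 2 fell. Prc1, which bundles antiparallel microtubules at the midzone, measured 116, 124 and 124 CPM in BMP2ADV, 127, 102 and 106 in BMP2ADV20a, 108, 116 and 106 in BMP2ADV148b and 88.7, 97.2 and 99.7 in BMP2ADV590. The BMP2ADV590 libraries were the lowest 3 of 12, at -0.35 (-0.54 to -0.16, adjusted p = 0.0156). Kif20a, the kinesin that carries the passenger complex there, measured 109, 118 and 127 CPM in BMP2ADV, 100.3, 124 and 98.2 in BMP2ADV20a, 113, 109 and 102 in BMP2ADV148b and 86.7, 94.5 and 97.0 in BMP2ADV590, again with the BMP2ADV590 libraries lowest, at -0.35 (-0.54 to -0.15, adjusted p = 0.0246). Neither call held on leaving out BMP2ADV replicate 2 or 3 or BMP2ADV590 replicate 1, with adjusted p up to 0.0655 for Prc1 and 0.137 for Kif20a. Racgap1 and Kif23, the partners that form centralspindlin, were at -0.26 (adjusted p = 0.0519) and -0.15 (adjusted p = 0.524), and Ect2, the exchange factor that they recruit to start the contractile ring, at -0.40 (adjusted p = 0.0722). Racgap1 was called without BMP2ADV148b replicate 2 or BMP2ADV590 replicate 2 (adjusted p = 0.0482 and 0.0432), by DESeq2 (0.0231) and without TMM scaling (0.0271). Kif23 had its lowest levels in BMP2ADV148b, at 30.7, 35 and 29.8 CPM against 43.0, 41.0 and 41.4 in BMP2ADV, and there had the lowest unadjusted p of the 42 genes, 0.00347 (adjusted p = 0.261).

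Of the 2 chromosome structure genes, Top2a fell in BMP2ADV590 and Mki67 was not called. Top2a, the topoisomerase that untangles sister chromatids, measured 294, 303 and 317 CPM in BMP2ADV, 299.6, 269 and 304 in BMP2ADV20a, 299.8, 297 and 272 in BMP2ADV148b and 239, 276 and 235 in BMP2ADV590. It fell by 0.28 on the log2 scale in BMP2ADV590 (adjusted p = 0.0295) with no overlap against BMP2ADV, and BMP2ADV590 replicate 2 lay within the BMP2ADV20a and BMP2ADV148b ranges. This call was lost without BMP2ADV replicate 2 or 3 or BMP2ADV590 replicate 1 or 3 (adjusted p up to 0.138), and it held in 6 of the 8 other settings (up to 0.0555). Mki67 encodes Ki-67, the surfactant-like coat of mitotic chromosomes used to stain dividing cells, and measured 82.1, 85.5 and 95.7 CPM in BMP2ADV, 78.3, 85.5 and 84.4 in BMP2ADV20a, 85.9, 82.9 and 79.0 in BMP2ADV148b and 68.3, 75.6 and 74.6 in BMP2ADV590. Its BMP2ADV590 libraries were below the 9 others, and the value of -0.27 (-0.45 to -0.08) missed the threshold (adjusted p = 0.0632), while DESeq2 (0.0428) and edgeR without TMM scaling (0.034) called it.

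BMP2ADV590 replicate 2 stood apart in a few mitosis genes, which were picked out after their values were seen. It held 5.56 CPM of Nek2 against 15.7 and 16.0 in the other libraries of its group, and 23.3 of Ckap2 against 57.5 and 49.1. Aurkb and Bub1, given above, were the other genes under 75% of the mean of replicates 1 and 3. Over all 42 genes it was the lowest of its group in 15 and the highest in 16, so it was not low in general. On the second principal component it lay at -23.4, with replicates 1 and 3 at 22.6 and 9.63.

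Counting could mix neighbouring genes in part of the members. The strand setting of the counting is not stated in the labels, so reads from exons that 12 members share with a gene on the opposite strand cannot be told apart from their own, among them Kif20a with Cdc23 over 1271 bases, Prc1 with Rccd1 over 911 and Ccna2 with Exosc9 over 510. Near copies, matching at least 250 of the last 400 transcript bases at 95% identity or more, were found for Ccnb1 (Ccnb1-ps, Gm12856, Gm4870 and Gm8416), Cdc20 (Gm7856) and Kif2c (Gm4961), so their levels are uncertain.

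With miR-20a or miR-148b on the plasmid no mitosis gene was called. In BMP2ADV20a against BMP2ADV edgeR, DESeq2 and limma-voom each called 0 of 42, where edgeR called 0.476% of all tested genes. By edgeR 4 of the 42 had an unadjusted p under 0.05 (Aurkb, Ccna2, Cdc25c and Ect2), near the 9.87% of all tested genes. The median fold change was -0.10, 36 of the 42 values were below 0, and in 6 the BMP2ADV20a libraries were wholly lower, against 8.79% of all tested genes. Ect2 was 1 of these, with 19.3, 16.5 and 19.4 CPM in BMP2ADV20a against 24.2, 24.7 and 21.9 in BMP2ADV, or -0.36 (-0.64 to -0.08, adjusted p = 0.351). In BMP2ADV148b against BMP2ADV the same 3 tools called 0 of 42, where edgeR called 0.249% of all tested genes. By edgeR 4 of the 42 had an unadjusted p under 0.05 (Aurkb, Ccna2, Kif23 and Kif2c), near the 8.43% of all tested genes. The median was -0.13, 39 values were below 0, and 7 genes were wholly lower, against 7.37% of all tested genes. Kif2c measured 38.3, 34.4 and 38.4 CPM there against 44.7, 44.2 and 47.2 in BMP2ADV, or -0.29 (-0.51 to -0.08, adjusted p = 0.376). The 3 comparisons share the BMP2ADV libraries. The standard error of a fold change had a median of 0.10 over the mitosis genes in BMP2ADV20a and in BMP2ADV148b, so intervals this wide do not show that the levels were equal.

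The hybrid groups were also compared with each other, without the BMP2ADV libraries as a side of the contrast. In BMP2ADV590 against BMP2ADV20a 1 mitosis gene was called lower, Cenpa, at -0.39 (adjusted p = 0.046), where 0.877% of all tested genes were. In 16 of the 42 the BMP2ADV590 libraries were wholly lower, against 9.25% of all tested genes, and the median was -0.15. The Cenpa call held in 5 of the 12 fits that left out 1 library (adjusted p 0.0168 to 0.178, lost without BMP2ADV replicate 2, any 1 BMP2ADV20a library, BMP2ADV148b replicate 2 or BMP2ADV590 replicate 2 or 3). It held in 6 of the 8 other settings, with adjusted p up to 0.0806. In BMP2ADV590 against BMP2ADV148b edgeR called 0 lower, where 1.97% of all tested genes were called lower. By edgeR 13 members had an unadjusted p under 0.05, against 17.1% of all tested genes. DESeq2 called 4 members and limma-voom 0, and the shares of all tested genes by these 2 tools are not given here. The BMP2ADV590 libraries were wholly lower in 12 of the 42, against 10.4% of all tested genes, with a median of -0.13. BMP2ADV148b and BMP2ADV20a did not separate: edgeR, DESeq2 and limma-voom called 0 of 42, where edgeR called 0.559% of all tested genes. By edgeR 1 member had an unadjusted p under 0.05, against 7.79% of all tested genes, and the median was 0.00. Testing all 4 groups at once called Cenpa (adjusted p = 0.0186) and Aurka (0.0362), or 2 of 42, where 6.25% of all tested genes were called. In that test 20 of the 42 had an unadjusted p under 0.05, a count with no share of all tested genes at hand.

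Further cell cycle genes, in 6 lists that hold no mitosis gene described so far, were read from the same fit. In BMP2ADV590 against BMP2ADV 26 of their 177 tested genes were called lower and 0 higher, beside the 3.89% given above. The count was 13 with the 2 groups fitted alone. It was 14, 9, 14 and 14 without BMP2ADV replicate 2, BMP2ADV replicate 3, BMP2ADV590 replicate 2 and BMP2ADV590 replicate 3. For those fits the share of all tested genes called is not given here. In BMP2ADV20a and in BMP2ADV148b edgeR, DESeq2 and limma-voom called 0 of the 177. At an unadjusted p under 0.05 by edgeR were 9 and 8 of the 57 further mitosis genes and 5 and 1 of the 53 DNA replication genes. Over all tested genes the shares at that bound were 9.87% in BMP2ADV20a and 8.43% in BMP2ADV148b. Of 57 further mitosis genes 6 fell in BMP2ADV590 (median -0.26), among them Ckap2l, a spindle pole protein, from 100.0 ± 8.11 to 74.3 ± 5.34 CPM (SD, n = 3, -0.43, adjusted p = 0.00423). Psrc1, a microtubule-binding protein, was at -0.53 (adjusted p = 0.00457), Kif22, a chromosome-arm kinesin, at -0.41 (0.0174) and Cit, the citron kinase of the midbody, at -0.39 (0.0194). Condensin and cohesin, the rings that fold and hold chromatids, had 4 of 17 genes lower (median -0.20): Smc4 at -0.33, Smc2 at -0.31, Ncapg at -0.42 and Smc3 at -0.33, with adjusted p of 0.0178, 0.0267, 0.03 and 0.0491.

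DNA replication genes, which act a phase earlier, had 13 of 53 lower in BMP2ADV590 (median -0.25). Gins2, a subunit of the replicative helicase, went from 38.4 ± 4.28 to 25.5 ± 1.88 CPM (SD, n = 3, -0.59, adjusted p = 0.00219), and Pola1, the catalytic subunit of the priming polymerase, from 54.4 ± 7.26 to 36.6 ± 4.63 (-0.57, adjusted p = 0.00457). Timeless, which steadies forks, and Lig1, the ligase that joins Okazaki fragments, were at -0.48 (0.0116) and -0.34 (0.0152). Upstream of these, 3 of 12 G1 genes fell: Ccnd1, the cyclin D1 gene, from 615 ± 54.8 to 377 ± 39.2 CPM (SD, n = 3, -0.70, adjusted p = 1.56e-05), and the CDK inhibitor genes Cdkn2a and Cdkn2b at -0.47 (0.0178) and -0.50 (0.0432). Cdkn1a, which encodes the inhibitor p21, had uncalled values of 0.05, 0.09 and -0.13 in BMP2ADV20a, BMP2ADV148b and BMP2ADV590 (adjusted p = 0.89, 0.795 and 0.372).

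APC/C subunit genes, whose products are present through the cycle, had 0 of 16 called by edgeR and a median of 0.09 in BMP2ADV590, with 0 at an unadjusted p under 0.05. The mitotic transcription regulators had 0 of 22 called and a median of -0.04, with 5 at an unadjusted p under 0.05. Over all tested genes 3.89% were called lower and 21.2% had an unadjusted p under 0.05 by edgeR. In lists this short 0 called genes is near that share. Foxm1, the forkhead activator of mitosis genes, was at -0.08, -0.02 and -0.19 in BMP2ADV20a, BMP2ADV148b and BMP2ADV590 (adjusted p = 0.849, 0.972 and 0.254). Mybl2, which encodes B-MYB, was at -0.12, -0.21 and -0.46 (adjusted p = 0.92, 0.871 and 0.304), from 8.75 ± 1.02 CPM in BMP2ADV to 6.37 ± 0.352 in BMP2ADV590 (SD, n = 3).

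**Figure D5:**
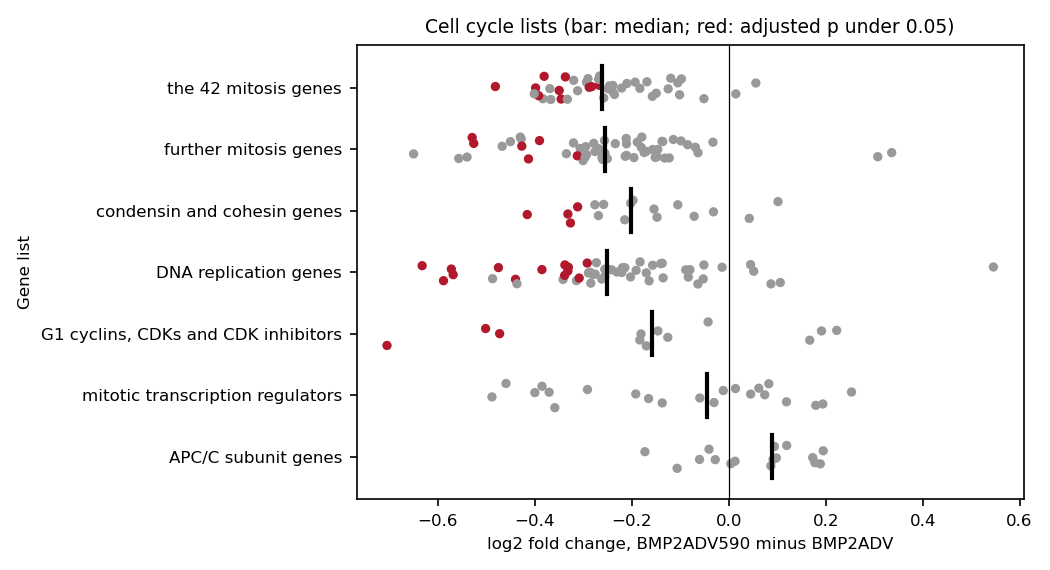
Log2 fold change in BMP2ADV590 against BMP2ADV (horizontal axis) for each tested gene (points) of the 42 mitosis genes and 6 further cell cycle lists (vertical axis), with a bar at each list's median and red for adjusted p under 0.05. Medians run from -0.26 for the mitosis genes to 0.09 for APC/C subunit genes, which hold no red point.

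Promoter motifs were set beside these values as a description. In the further mitosis list 37.7% of windows held both motifs, in condensin and cohesin genes 28.6%, in mitotic transcription regulators 22.2%, in DNA replication genes 10.4% and in APC/C subunit genes and G1 genes 0%. DNA replication genes had CHR-type matches in 14.6% of windows, under the 19.2% of all windows, and CCAAT in 60.4%. Within the 42 mitosis genes, the 27 with both motifs had a median BMP2ADV590 fold change of -0.24, and the 8 with an entry but not both -0.25. Of the 27, 6 fell, and the range ran from -0.48 for Cenpa to 0.06 for Bub3; Bub3 and Cdc25b hold both motifs and had values near 0. Of the 8, 0 fell, with values from -0.33 to -0.12. The 7 genes without a promoter entry hold 4 of the 10 that fell (Ccna2, Incenp, Kif20a and Tpx2), so these could not be classed.

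The mature miRNAs of the hybrid plasmids are shown for their seeds, bases 2 to 8, in capitals, since a transcript with the matching 7 bases in its 3′ untranslated region (UTR) is a candidate target. Sequences are from RefSeq. miR-21a-5p stands in for miR-590-5p, which is known to share its seed; miR-590-3p was not searched, and the labels do not name the arm.
mmu-miR-20a-5p: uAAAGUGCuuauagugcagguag
mmu-miR-148b-3p: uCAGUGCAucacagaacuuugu
mmu-miR-21a-5p: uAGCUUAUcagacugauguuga

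Seed matches of 7 bases were less frequent among the mitosis genes than over tested genes, on counts of 5 or fewer. Mitosis gene UTRs had a median length of 874 bases against 1398 over the 11588 tested genes with an annotated one. With an A after the 7 bases, the miR-20a share was 4.76%, against 4.67% of tested genes. The miR-20a match was present in 3 of 42 (7.14%, against 15.6% of tested genes), that of miR-148b in 5 (11.9%, against 17.0%) and that of miR-21a in 1 (2.38%, against 8.6%). The sites are printed with the matching bases in capitals, as DNA, for Ect2, Kif23, Aurkb, Ccna2 and Ndc80. Those printed for Ect2, Kif23 and Aurkb are followed by A. Ect2 holds a further miR-20a site at UTR position 1503, not followed by A, which is not printed.
Ect2, mmu-miR-20a-5p, UTR position 1233 of 3283: cagacaaaaGCACTTTagaaaa
Kif23, mmu-miR-20a-5p, UTR position 222 of 384: aaaaaaaatGCACTTTagacat
Aurkb, mmu-miR-148b-3p, UTR position 409 of 603: aaacacccaTGCACTGactttt
Ccna2, mmu-miR-148b-3p, UTR position 790 of 1369: cttctggttTGCACTGgtctga
Ndc80, mmu-miR-21a-5p, UTR position 2526 of 3575: ggctaacaaATAAGCTcttaac

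No gene with a site was called in the group that carries its miRNA. In BMP2ADV20a Ect2 was at -0.36, Kif23 at -0.23 (adjusted p = 0.53) and Bub3, which has a site as well, at 0.04. In BMP2ADV148b Aurkb was at -0.34 (adjusted p = 0.57), Ccna2 at -0.27, Nusap1 at -0.18, Cdk1 at -0.01 and Plk1 at 0.04, the last 3 also with a site. Ndc80 was at -0.12 in BMP2ADV590. The median of the site genes was -0.23 in BMP2ADV20a, against -0.09 for the other mitosis genes, and -0.18 in BMP2ADV148b, against -0.12. In BMP2ADV590 the order was the other way, -0.12 for the 1 gene with a miR-21a site against -0.27 for the others. The 10 mitosis genes that fell in BMP2ADV590 hold no miR-21a match. Only 1 of the 42 and 8.6% of tested genes hold one, so its absence from 10 genes says little. Sites of miR-590-3p were not searched.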

How the data were processed

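RNA of 12 libraries was prepared as 3′ tag libraries (QuantSeq 3′ mRNA FWD, per the labels' protocols, which name no molecular tags). The deposited values are raw counts per gene, and per the submitters' processing notes FastQC 0.11.5, STAR 2.5.2a, HTSeq 0.6.0 and build GRCm38 were used by the authors. Those notes also list DESeq2 with the version 3.11. For the counting step, neither strand handling nor the annotation used is given in the sources used here. Lines that name no gene held 52.2% to 54.4% of the counts in each file and were left out. Most of these counts were on the line for alignments that are not unique (41.5% to 44.5%). Gm42418, a gene rich in ribosomal sequence, took 4.07% to 10.0% of gene counts. Symbols from GENCODE M21 were found for 47224 of 47643 gene identifiers.

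Groups were read from the sample titles. Counts were filtered with filterByExpr, scaled by TMM and fitted in edgeR 4.0.16 (R 4.3.3) with a mean for each of the 4 groups over all 12 libraries (8 residual degrees of freedom, common biological coefficient of variation 0.117), and tested by the quasi-likelihood F-test with Benjamini-Hochberg adjustment over 13229 genes at 0.05. Fold changes use edgeR's default prior count of 0.125. Groups were called not overlapping where every library of 1 group lay below every library of the other. The fit was also run on simulated counts with known changes, and how many of these it recovered is not reported here. Alternatives were DESeq2 1.42.0, limma-voom (limma 3.58.1), DESeq2 size factors, no TMM, no filter, counts without Gm42418, a replicate block, the 2 groups alone, and leaving out each library.

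The members and the lists were chosen with earlier results of these data known. All 42 are accounted for; 12 central genes and every called member are described in full, with up to 4 called genes, by smallest p, from each related list, and Cdkn1a, Foxm1 and Mybl2 always. Promoters, miRNAs and their letters come from RefSeq (GRCm38.p6), and UTR sites from GENCODE M21 transcripts.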

Additional observations from a re-analysis of the deposited data

Results flagged for a closer look

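Cenpa, the centromere histone gene, differed between 2 of the hybrid groups themselves: BMP2ADV590 minus BMP2ADV20a was -0.39 on the log2 scale (edgeR, adjusted p = 0.046), with all 3 BMP2ADV590 libraries below the 3 of BMP2ADV20a. It was picked out because a direct test separated 2 groups that each carry a hybrid plasmid, the 1 mitosis gene called in such a test by edgeR with all libraries, TMM scaling and the count filter. The call held in 5 of the 12 fits that left out 1 library (adjusted p up to 0.178). DESeq2 called 3 mitosis genes in this comparison and 4 in BMP2ADV590 against BMP2ADV148b, where edgeR without TMM scaling also called 4. The shares of all tested genes called under these settings are not given here, so these counts have no background beside them.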

How the results depend on the processing

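The medians of the 42 mitosis genes stayed below 0 in each hybrid group under each alternative run. On leaving out 1 library they ranged from -0.14 to -0.06 in BMP2ADV20a, -0.15 to -0.08 in BMP2ADV148b and -0.31 to -0.24 in BMP2ADV590, and the summed level from 92.7% to 96.5%, 92.0% to 95.9% and 82.6% to 86.3% of BMP2ADV. Without TMM scaling the summed level was 91.7% in BMP2ADV20a and 83.1% in BMP2ADV590. Counts of calls moved more, and they are given without the share of all tested genes under each setting. In BMP2ADV590 against BMP2ADV the 10 became 6 with the 2 groups alone and 2 to 12 with 1 library left out, and the 26 related genes became 13 and 9 to 28. Against BMP2ADV20a the 1 became 0 without TMM and 3 by DESeq2 (0 to 1 with 1 library left out); against BMP2ADV148b the 0 became 4 without TMM, 1 without the filter and 4 by DESeq2 (0 to 2). Among the 4 groups the 2 became 7 by DESeq2 (0 to 2). Related genes called in BMP2ADV20a became 1 without the filter and 1 with the 2 groups alone (0 to 1). With 1 library left out Bub1 in BMP2ADV590 ran from -0.21 to 0.074 (the last without BMP2ADV590 replicate 2) and Bub1b from -0.15 to 0.068 (the last without BMP2ADV replicate 3; it was also above 0 without BMP2ADV590 replicate 3). With 8-base seed sites 4.76% of members had a miR-20a site, against 4.67% of tested genes. The shares were 2.38% against 4.72% for miR-148b and 0% against 2.47% for miR-21a. The cause of these shifts was not tested.

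Replicate numbers did not pair the libraries: deviations of same-numbered libraries correlated at -0.113 to 0.0715 over 18 pairs and those of other pairs at -0.0905 to 0.115 over 36. With the replicate block the counts were 6 in BMP2ADV590 against BMP2ADV, 0 against BMP2ADV20a and 1 among the 4 groups. With 3 libraries a group, precision limits what can be called: the median standard error of a member's fold change was about 0.10.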
